A study of Homo sapiens with 12 samples.

Results

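The genes described here make cholesterol and fatty acids or regulate that synthesis, except MYLIP, which acts on lipoprotein receptors, and STARD4, which carries cholesterol. They are a list of 32 gene symbols, matched to the Ensembl identifiers of a table of 60671 genes. All 32 were found, and all 32 were among the 18626 genes left for testing by a filter on low counts. By role they are 7 regulators, 8 genes of the mevalonate steps, 11 genes of the squalene and sterol steps and 6 genes of the fatty acid steps. MYLIP and STARD4 are grouped with the regulators.

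The study sequenced total RNA of 3 human leukemia lines, with 4 samples of each. K562 is the parental erythroleukemia line. K/VP.5 is a clone derived from K562 by growth in etoposide, a drug that traps topoisomerase II on DNA, and it resists that drug. K562/SSedit-2 is a clone of K562 in which CRISPR/Cas9 with homology-directed repair changed a 5′ splice site in 2 of the 3 alleles of TOP2A, the gene of topoisomerase IIα. All lines grew in DMEM with fetal bovine serum and were taken in mid-log phase. Each derived line is a single clone, so selection or editing cannot be told apart from the choice of that clone. The total count per sample ran from 36883518 to 43648830 for K562, from 28981722 to 39944440 for K/VP.5, and for the edited clone K562/SSedit-2 from 32355417 to 37619488. The sources used here do not say that the samples of a line were separate cultures, so p-values measure the spread between these samples, which may be technical.

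TOP2A served as a check of the labels. It stood at 487.6, 353, 380 and 388 CPM (counts scaled to the size of each library) in the K562 samples. The K/VP.5 samples had 281, 269, 282 and 268 CPM, and those of K562/SSedit-2 had 203, 177, 179 and 208 CPM. No sample of either derived line reached the lowest K562 sample. The log2 fold change against K562 was -0.55 in K/VP.5 (adjusted p 8.58e-05) and -1.07 in K562/SSedit-2 (adjusted p 1.05e-06). Of the marker genes listed for K562, GATA1, TAL1 and TFRC each reached at least 1 CPM in each line.

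Animal cells build cholesterol from acetyl-CoA through mevalonate, isoprenoid diphosphates, squalene and a series of sterols, and they build fatty acids from the same acetyl-CoA by way of malonyl-CoA. Transcription factors called SREBPs switch on most genes of these pathways when membranes are poor in sterol. SCAP escorts the SREBPs to the Golgi to be cleaved, and INSIG proteins hold SCAP back in the endoplasmic reticulum when sterol is plentiful.

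RefSeq promoters (GRCh38.p14, from 250 bases before to 50 bases after the start) were found for 28 of the 32 genes, and 9 of these have several. Each was searched on both strands for a sterol regulatory element (TCACNCCA), the CCAAT box bound by NF-Y (CCAAT) and the GC box bound by SP1 (GGGCGG). The sterol element was in 3 of 28 genes (10.7%), against 4.8% of the 27305 genes with a promoter and 4.51% of the 11393 of those that were tested. A CCAAT box was in 22 of 28 genes (78.6%), against 39.7% and 42.2%. A GC box was in 27 of 28 genes (96.4%), against 48.3% and 75%. A match is a run of letters and not a measured binding site.

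The 3 genes with the sterol element were SREBF2, which encodes SREBP-2, MVK, the mevalonate kinase, and MSMO1, which oxidizes a methyl group of the sterol ring. The element lay 133, 195 and 156 bases before the start. Windows of 48 bases around it are shown for SREBF2 (chr22:41832952-41832999, plus strand) and MVK (chr12:109573579-109573626, plus strand), and the promoter of MSMO1 is shown whole (chr4:165327419-165327718, plus strand). Capitals mark a match to any of the 3 motifs on either strand.
SREBF2: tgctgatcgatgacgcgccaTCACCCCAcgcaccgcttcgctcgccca
MVK: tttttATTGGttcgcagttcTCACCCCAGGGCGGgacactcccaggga
MSMO1: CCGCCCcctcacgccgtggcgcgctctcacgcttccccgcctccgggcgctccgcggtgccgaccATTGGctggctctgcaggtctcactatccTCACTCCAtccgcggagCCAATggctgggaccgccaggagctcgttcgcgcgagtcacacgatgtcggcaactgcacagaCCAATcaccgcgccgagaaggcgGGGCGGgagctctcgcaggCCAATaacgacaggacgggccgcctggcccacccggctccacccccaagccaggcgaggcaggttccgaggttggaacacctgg

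Promoters are also shown for MVD and HMGCS1, the most raised of these genes in K/VP.5, and for TM7SF2 and FADS1, the most lowered. These are MVD (chr16:88663042-88663341, minus strand), HMGCS1 (chr5:43313363-43313662, minus strand, the first of 2 promoters), TM7SF2 (chr11:65111622-65111921, plus strand) and FADS1 (chr11:61816954-61817253, minus strand). They were chosen after the values had been seen. No link between motifs and fold changes was tested.
MVD: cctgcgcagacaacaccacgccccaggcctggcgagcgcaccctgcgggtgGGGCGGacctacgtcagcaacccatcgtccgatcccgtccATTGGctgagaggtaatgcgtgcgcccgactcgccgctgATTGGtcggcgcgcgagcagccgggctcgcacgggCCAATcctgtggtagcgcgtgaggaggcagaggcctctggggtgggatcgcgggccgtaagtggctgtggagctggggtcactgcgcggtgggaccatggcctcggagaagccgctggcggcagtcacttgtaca
HMGCS1: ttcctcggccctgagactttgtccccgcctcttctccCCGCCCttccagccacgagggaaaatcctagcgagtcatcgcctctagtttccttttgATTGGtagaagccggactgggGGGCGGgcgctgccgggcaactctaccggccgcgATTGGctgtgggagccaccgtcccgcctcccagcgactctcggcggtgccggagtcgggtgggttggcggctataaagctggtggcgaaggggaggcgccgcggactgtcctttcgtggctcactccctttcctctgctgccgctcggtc
TM7SF2: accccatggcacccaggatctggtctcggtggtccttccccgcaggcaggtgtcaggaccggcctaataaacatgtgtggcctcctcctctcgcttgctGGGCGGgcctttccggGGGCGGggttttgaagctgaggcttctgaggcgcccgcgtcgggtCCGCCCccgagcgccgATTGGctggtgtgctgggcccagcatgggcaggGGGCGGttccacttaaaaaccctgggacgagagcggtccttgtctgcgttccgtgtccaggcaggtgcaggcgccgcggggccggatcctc
FADS1: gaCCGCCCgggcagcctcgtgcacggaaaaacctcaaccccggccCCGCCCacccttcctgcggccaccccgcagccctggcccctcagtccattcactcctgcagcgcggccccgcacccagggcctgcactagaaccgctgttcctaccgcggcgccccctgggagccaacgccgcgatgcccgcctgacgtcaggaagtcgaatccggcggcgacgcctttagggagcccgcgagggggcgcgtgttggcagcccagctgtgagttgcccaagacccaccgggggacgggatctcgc

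Levels of different genes were compared as CPM per kilobase of exon. FASN, the synthase that assembles palmitate, and SCD, the desaturase that makes monounsaturated fatty acids, ranked highest in all 3 lines. In K562 they stood at 447.5 ± 52.6 and 365.1 ± 82.1 CPM per kilobase (SD, n = 4), a gap within their spread. The lowest in all 3 lines was SC5D, a desaturase of the sterol ring, at 2.08 CPM per kilobase in K562, 2.87 in K/VP.5 and 2.17 for K562/SSedit-2. In K/VP.5 the order shifted: MVD went from rank 15 in K562 to rank 7, and FADS1 from rank 7 to rank 16. In K562/SSedit-2 the ranks of MVD and FADS1 were 14 and 8.

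Samples of the same line were not alike for these genes. K562 replicate 1 stood apart from the other K562 samples over all genes, with a chi-square per degree of freedom of 59.3 to 61.8 in its pairs, where the other pairs within a line gave 5.15 to 21.35. In that sample 26 of the 32 genes were above their K562 mean, against 22, 5 and 2 in replicates 2, 3 and 4. In K/VP.5, replicate 2 was the high sample, with 29 of 32 genes above the line mean, against 5, 20 and 5 in replicates 1, 3 and 4. In K562/SSedit-2 the counts were 22, 27, 18 and 4. For K/VP.5 against K562 the counts of genes called, the genes past 2-fold and some others are therefore also given without these samples.

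**Figure D1:**
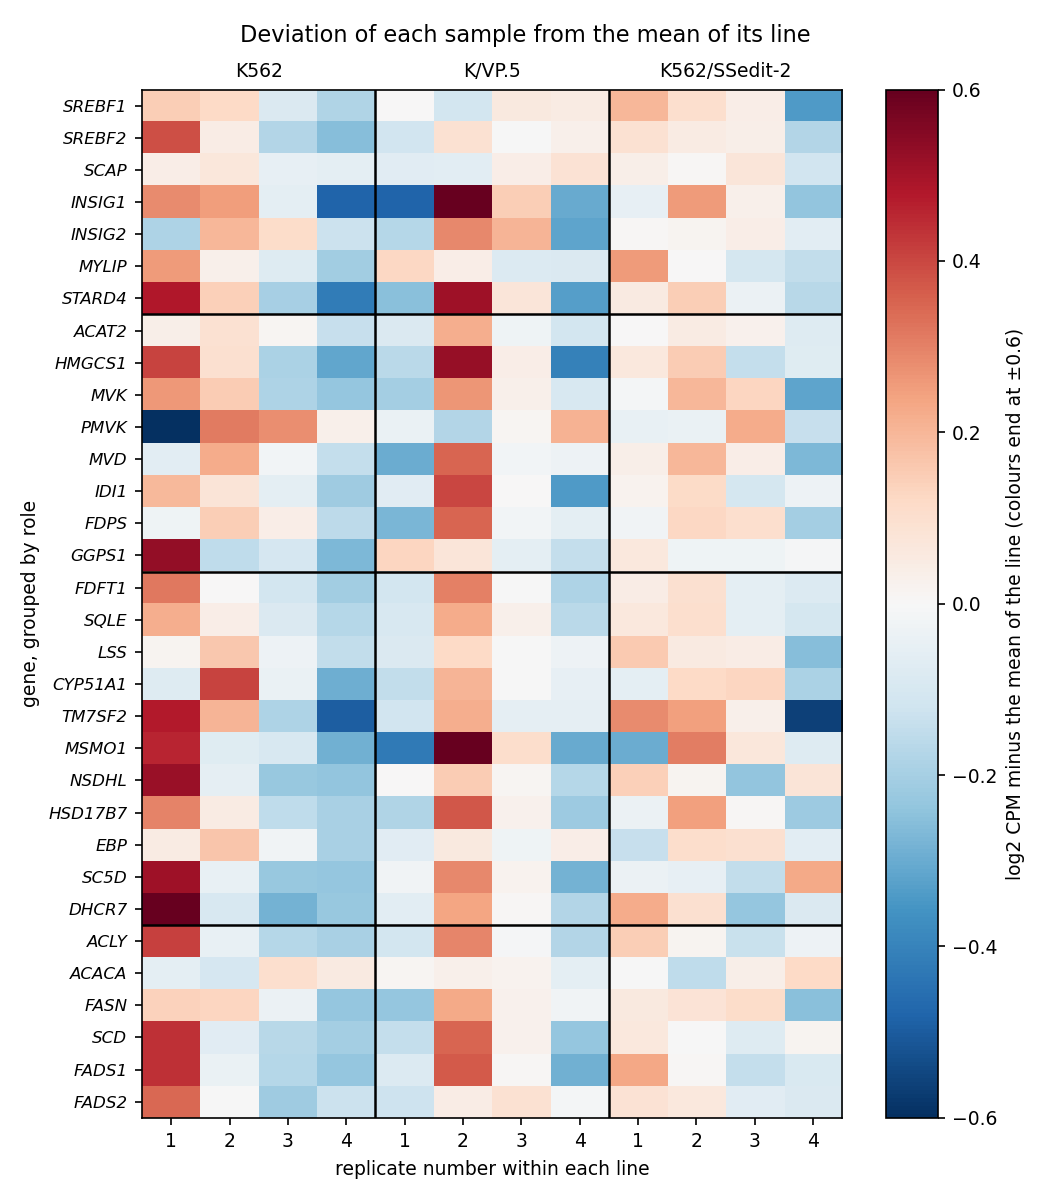
Colour gives the log2 CPM of each gene (vertical axis, by role) minus its mean in the same line, for each of the 12 samples (horizontal axis, by line and replicate), with colours ending at -0.6 and 0.6. Most genes are red in K562 replicate 1 (median 0.27) and K/VP.5 replicate 2 (median 0.23) and blue in K562 replicate 4 (median -0.21).

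The spread can be put beside that of other genes. The median coefficient of variation of the 32 genes was 17.45% for K562, 12.65% for K/VP.5 and 10.2% for K562/SSedit-2, where the 8882 genes with at least 10 CPM had 9.66%, 5.9% and 7.39%. DHCR7, which makes cholesterol in the last step of its pathway, varied most in K562 (32.1%). INSIG1 varied most in K/VP.5 (35.8%), and TM7SF2, a reductase of the sterol ring, varied most in K562/SSedit-2 (24.15%).

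The comparison of K/VP.5 with K562 asks how a line selected for etoposide resistance differs from its parent. MVD and HMGCS1 were the most raised in K/VP.5, while TM7SF2, FADS1, NSDHL and MYLIP were the most lowered. At adjusted p under 0.05 (edgeR), 10 of 32 genes were higher (31.2%) and 7 were lower (21.9%), beside 22.7% and 22.9% of all genes tested. At the study's threshold, 2-fold at adjusted p under 0.1, 1 was higher (MVD) and 4 were lower (TM7SF2, FADS1, NSDHL and MYLIP), beside 8.98% and 6.66% of all genes. No test sets these shares apart from the background, and they are not read as a result about the list. The median log2 fold change was 0.07 for the 32 genes and 0.01 for all genes. Without 1 sample, the median of the 32 genes ran from -0.0064 to 0.15. In bulk RNA a lower level in every cell and fewer cells with the transcript cannot be told apart.

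The counts depended on which samples were used. Without K562 replicate 1, 12 genes were higher and 7 lower, and 2 were past 2-fold in each direction. The share of all genes past 2-fold in that setting is not given here, so nothing is read from the last count. Without K/VP.5 replicate 2, 4 were higher and 6 lower. Without both, a setting chosen after seeing the data, 9 were higher and 8 lower, and 14 of the 17 genes called with all samples were called again. Without K562 replicate 3 or 4 the higher genes numbered 5 and 4, beside 3860 of 19025 and 3885 of 18985 among all genes. Among all genes, 4350 of 19028 were called higher and 4474 lower without K562 replicate 1, 3863 and 3903 of 18969 without K/VP.5 replicate 2, and 4236 and 4023 of 18842 without both.

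**Figure D2:**
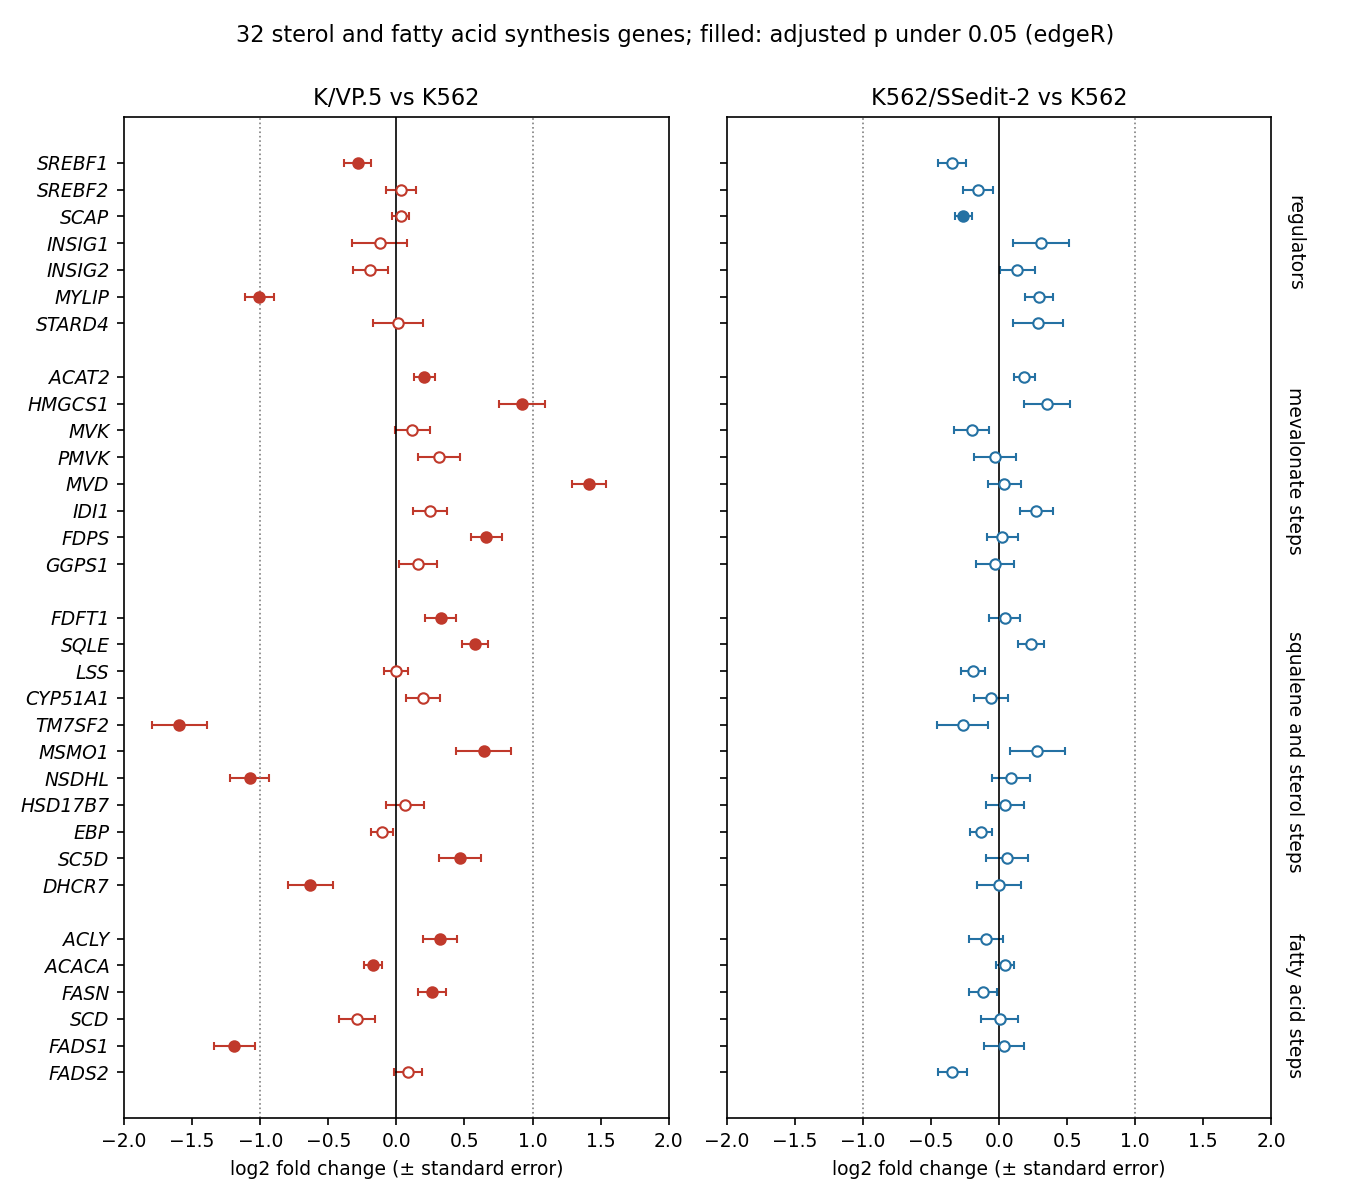
Log2 fold change (horizontal axis, bars for the standard error) of each gene (vertical axis, by role) against K562, for K/VP.5 on the left and K562/SSedit-2 on the right, filled where adjusted p is under 0.05 by edgeR, with dotted lines at 2-fold. MVD lies furthest right at 1.41 and TM7SF2 furthest left at -1.59 in K/VP.5, while all genes lie between -0.34 and 0.35 in K562/SSedit-2.

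The mevalonate steps turn acetyl-CoA into the isoprenoid building blocks. All 8 genes had a log2 fold change above 0 in K/VP.5 with all samples, with a median of 0.28, where 9418 of all 18626 genes lay above 0. Of the 8, MVD, HMGCS1, FDPS and ACAT2 rose, beside 22.7% of all genes. No test sets the counts of any role apart from all genes. Summed over the 8 genes, the level was 1240 ± 148 CPM for K562, 2100 ± 424 CPM for K/VP.5 and 1409 ± 103 CPM for K562/SSedit-2 (SD, n = 4). Without K562 replicate 1 and K/VP.5 replicate 2 the K562 sum was 1193 CPM and the K/VP.5 sum 1897 CPM. MVD and HMGCS1 make up most of that difference. In the other roles single genes went both ways, so that sums can hide their differences, and the roles were not compared by a test. The squalene and sterol steps summed to 1774 ± 277 CPM for K562 and 1898 ± 238 CPM for K/VP.5, the fatty acid steps to 8015 ± 1123 and 8159 ± 1086 CPM, and the regulators to 1403 ± 221 and 1296 ± 192.5 CPM.

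MVD decarboxylates mevalonate diphosphate to give isopentenyl diphosphate. Its level was 178, 217, 184 and 169 CPM in the K562 samples and 400, 625.5, 486 and 481 CPM in K/VP.5. Every K/VP.5 sample was above every K562 sample, and K/VP.5 replicate 2 was the highest. This is a log2 fold change of 1.41 (SE 0.125, adjusted p 1.01e-07), or 2.66-fold, and it lay between 1.29 and 1.49 when any of the 8 samples was left out.

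HMGCS1 makes HMG-CoA, the precursor of mevalonate. The K562 samples had 543, 438, 359 and 329.7 CPM and the K/VP.5 samples 688, 1105, 790.2 and 581 CPM. The lines did not overlap, and K562 replicate 1 was the closest to K/VP.5. The log2 fold change was 0.92 (SE 0.172, adjusted p 0.00032), and it was 1.05 without K562 replicate 1, past 2-fold, and 0.72 without K/VP.5 replicate 2. Part of the exon sequence of HMGCS1, 37.7%, is shared with a gene on the opposite strand that had 0 counts in all lines, and the strand setting of the counts was not stated.

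FDPS, which joins isoprenoid units into farnesyl diphosphate, rose from 176 ± 15.4 to 278.5 ± 51.75 CPM (SD, n = 4; log2 fold change 0.66, SE 0.112, adjusted p 0.000135), and its samples did not overlap. It was 0.63 without K562 replicate 1 and 0.53 without K/VP.5 replicate 2. FDPS shares 18.6% of its exon bases with RUSC1-AS1 on the opposite strand, which stood at 5.09 CPM in K562 and 10.45 CPM in K/VP.5. ACAT2, which condenses acetyl-CoA, rose by a log2 fold change of 0.20 (adjusted p 0.0371) with samples that overlapped. Without K562 replicate 3, K562 replicate 4 or K/VP.5 replicate 2, its value was 0.19, 0.14 and 0.13 and it was no longer called. ACAT2 shares 22.2% of its exon bases with other genes, among them TCP1 on the opposite strand at 1172 CPM in K562, so its level is uncertain. The 4 genes that were not called, MVK, PMVK (which phosphorylates phosphomevalonate), IDI1 (the isomerase) and GGPS1 (which makes geranylgeranyl diphosphate), had values of 0.12, 0.32, 0.25 and 0.16. Without K562 replicate 1, GGPS1 was called at 0.35. IDI1 was called without K/VP.5 replicate 4 (0.36), under upper-quartile scaling (0.32) and without a filter (0.22), and PMVK without a filter (0.29). Neither these nor MVK were steady: without K562 replicate 1 PMVK was 0.13, and without K/VP.5 replicate 2 IDI1 was 0.10 and MVK 0.02. GGPS1 shares 41.0% of its exon bases with other genes, which leaves its level uncertain too.

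The squalene and sterol steps take farnesyl diphosphate to cholesterol. Of the 11 genes, 4 rose (SQLE, MSMO1, SC5D and FDFT1) and 3 fell (TM7SF2, NSDHL and DHCR7), beside 22.7% and 22.9% of all genes, with a median log2 fold change of 0.06. SQLE, the epoxidase of squalene, was at 313, 277, 253 and 239 CPM in K562 and 375, 469, 410.4 and 359 CPM in K/VP.5. Its samples did not overlap, and the log2 fold change was 0.58 (SE 0.0941, adjusted p 8.92e-05), with 0.63 without K562 replicate 1 and 0.50 without K/VP.5 replicate 2. MSMO1 stood at 79.8, 55.3, 54.4 and 47.6 CPM in K562 and at 66.0, 136, 95.4 and 71.9 CPM in K/VP.5. Here K562 replicate 1 was above the lowest K/VP.5 samples, and K/VP.5 replicate 2 was highest. K/VP.5 was higher by 0.64 on the log2 scale (SE 0.203, adjusted p 0.0164). Without K/VP.5 replicate 2 it was 0.40, and without K562 replicate 4 it was 0.53, and in neither was it called.

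FDFT1 and SC5D were less steady. FDFT1, the squalene synthase, had a log2 fold change of 0.32 (adjusted p 0.026) and SC5D 0.47 (adjusted p 0.0209), both with overlapping samples. Without K562 replicate 2, 3 or 4 or K/VP.5 replicate 2, FDFT1 had 0.30, 0.26, 0.24 and 0.22, and SC5D had 0.42, 0.37, 0.37 and 0.37, and neither was called.

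TM7SF2 reduces a double bond of the sterol ring. Its samples had 45.5, 37.7, 28.7 and 23.2 CPM in K562 and 10.3, 13.0, 10.7 and 10.7 CPM in K/VP.5. The K/VP.5 samples were close together and all below K562. In log2 terms the change was -1.59 (SE 0.199, adjusted p 5.39e-06), or 3.02-fold lower, and it was -1.44 without K562 replicate 1 and -1.67 without K/VP.5 replicate 2.

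NSDHL, a dehydrogenase that helps to remove methyl groups from the ring, was at 86.2, 58.0, 51.4 and 51.1 CPM in K562 and at 29.2, 32.4, 29.4 and 25.9 CPM in K/VP.5. The lines were separate, and K562 replicate 1 was far above its line. The fitted value was -1.08 on the log2 scale (SE 0.143, adjusted p 1.09e-05), and -0.89 without K562 replicate 1, which is less than 2-fold, and -1.12 without K/VP.5 replicate 2. DHCR7 was at 469, 287, 252 and 262 CPM in K562 and at 195, 239.8, 205 and 180.3 CPM in K/VP.5. Its lines were separate too, with K562 replicate 1 the highest by a wide margin. On the log2 scale the change was -0.63 (SE 0.164, adjusted p 0.00472) and -0.40 without that sample, and -0.71 without K/VP.5 replicate 2. The genes of these steps that were not called, LSS, CYP51A1, HSD17B7 and EBP, lay between -0.10 and 0.20. CYP51A1 was called at 0.33 without K562 replicate 2. CYP51A1 shares 74.1% of its exon bases with other genes and EBP 36.4% with a gene on its own strand, so both levels are uncertain.

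Among the 6 genes of the fatty acid steps, ACLY and FASN rose, FADS1 and ACACA fell (22.7% and 22.9% of all genes), and the median log2 fold change was -0.04. FADS1 inserts double bonds into polyunsaturated fatty acids. Its level was 1061, 760.4, 695 and 667 CPM in K562 and 324.5, 443, 345 and 281 CPM in K/VP.5. All K/VP.5 samples were below all K562 samples. The log2 fold change was -1.19 (SE 0.148, adjusted p 5.26e-06), or 2.28-fold lower, and it was -1.04 without K562 replicate 1 and -1.32 without K/VP.5 replicate 2. FADS2, its neighbour and a desaturase of the same kind, had 44.4, 34.8, 30.1 and 31.96 CPM in K562 and 34.3, 38.5, 39.8 and 37 CPM in K/VP.5. These samples overlapped, with K562 replicate 1 the highest of all, and the log2 fold change was 0.08 (adjusted p 0.544). Without K562 replicate 1 it was 0.19, and FADS2 was called. FADS1 and FADS2 share 490 exon bases on opposite strands.

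ACLY supplies acetyl-CoA from citrate, ACACA turns it into malonyl-CoA, and FASN uses both. ACLY had a log2 fold change of 0.32 (adjusted p 0.0471), FASN 0.26 (adjusted p 0.049) and ACACA -0.17 (adjusted p 0.0454). Each is close to the threshold. Of the settings that left out 1 of the 8 samples, ACLY was called without K562 replicate 1, K/VP.5 replicate 1 or K/VP.5 replicate 4, and was 0.22 without K/VP.5 replicate 2. FASN was called without K562 replicate 1 or K/VP.5 replicate 1, and was 0.17 without K562 replicate 4. ACACA was called without K562 replicate 1 or 2, and was -0.15 without K/VP.5 replicate 4. ACACA was also not called under upper-quartile scaling (-0.11), without a filter or under the filter on CPM, and with only the 8 samples compared ACLY, FASN and ACAT2 were not called. SCD had a log2 fold change of -0.29 (adjusted p 0.0866), and was called as lower when K562 replicate 3, K562 replicate 4 or K/VP.5 replicate 2 was left out (-0.37, -0.38 and -0.42), and without a filter (-0.32). It was -0.14 and not called without K562 replicate 1, and -0.25 and called as lower without both K562 replicate 1 and K/VP.5 replicate 2.

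Of the 7 regulators, MYLIP and SREBF1 fell, beside 22.9% of all genes. MYLIP, a ubiquitin ligase that sends lipoprotein receptors to degradation, had 63.7, 54.4, 50.5 and 46.2 CPM in K562 and 29.1, 27.4, 25.2 and 25.1 CPM in K/VP.5. The lines were separate and K/VP.5 was even. The log2 fold change was -1.01 (SE 0.106, adjusted p 7.82e-07), at the edge of 2-fold, and -0.94 without K562 replicate 1 and -1.02 without K/VP.5 replicate 2. SREBF1, which encodes SREBP-1, had 279, 274, 237 and 222 CPM in K562 and 207, 192, 216 and 215 CPM in K/VP.5. All K/VP.5 samples were lower, by a narrow margin from K562 replicate 4. Its log2 fold change was -0.29 (SE 0.102, adjusted p 0.0312), and it was not called without K562 replicate 2 (-0.26) or K/VP.5 replicate 2 (-0.25), without both K562 replicate 1 and K/VP.5 replicate 2 (-0.20), or under upper-quartile scaling. The others, SREBF2, SCAP, INSIG1, INSIG2 and STARD4, a carrier of cholesterol between membranes, lay between -0.19 and 0.03. Without both K562 replicate 1 and K/VP.5 replicate 2, the setting chosen after seeing the data, INSIG2 was called at -0.35.

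**Figure D3:**
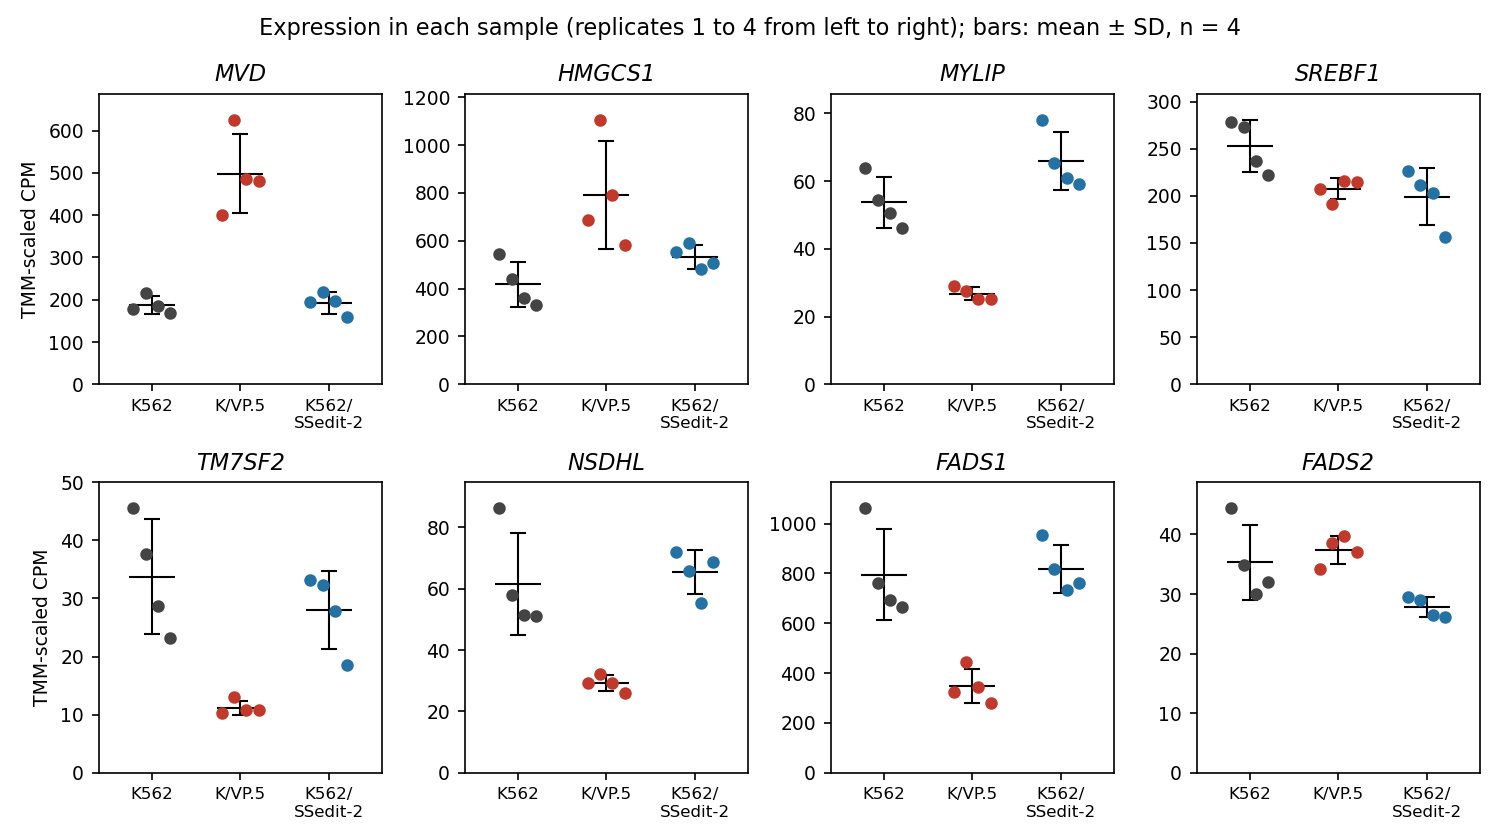
CPM (vertical axis, from 0) of 8 genes in the 4 samples of each line (horizontal axis), with bars for mean and SD. K/VP.5 samples lie above those of the other lines for MVD and below them for MYLIP, TM7SF2, NSDHL and FADS1.

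Some of these genes lie in stretches of the genome whose other genes moved the same way. Around NSDHL, the median over the 36 other tested genes within 1 Mb was -0.94 in K/VP.5, on the log2 scale, against -1.08 for NSDHL, and 29 of them were lower and 2 higher at adjusted p under 0.05, beside 22.9% and 22.7% of all genes. For DHCR7 the 19 neighbours had -0.65 against -0.63, with 11 lower. SCD, not called itself, stood at -0.29 beside -0.47 over 34 neighbours, of which 20 were lower and 3 higher. ACACA stood at -0.17 beside -0.27 over 28, 11 lower and 3 higher. SC5D stood at 0.47 beside 0.64 over only 3 neighbours, 2 of them higher and 0 lower. MVD stood at 1.41 above a median of 0.61 over 50 neighbours, of which 29 were higher and 6 lower, and MYLIP at -1.01 beside -0.43 over 11 neighbours, 6 of them lower and 1 higher. TM7SF2 (-1.59) and FADS1 (-1.19) differed from the medians of their neighbours, -0.03 over 91 genes, of which 28 were lower and 11 higher, and 0.11 over 64, of which 11 were lower and 17 higher. HMGCS1 (0.92), FDPS (0.66) and SQLE (0.58) had neighbours at 0.19, 0.08 and -0.14, of which 4 of 19, 19 of 73 and 3 of 13 were higher and 2, 14 and 4 lower. The part of these neighbourhoods in the result was not tested.

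**Figure D4:**
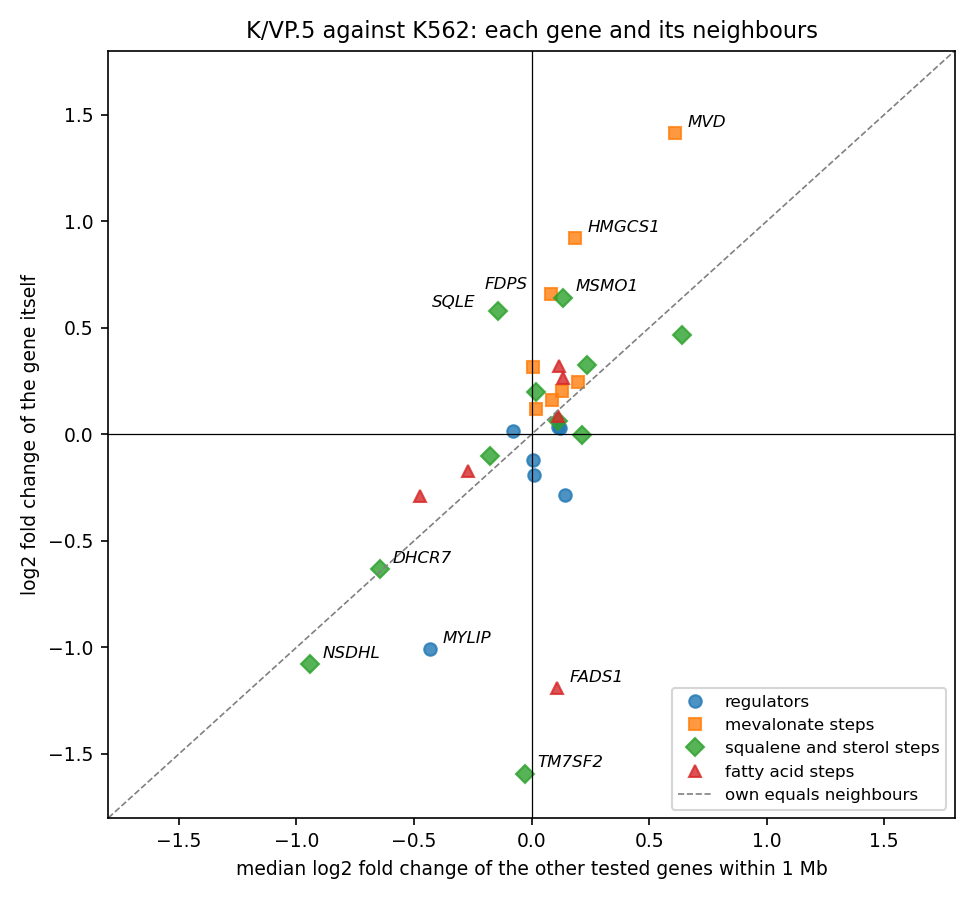
Log2 fold change of each gene in K/VP.5 against K562 (vertical axis) against the median over the other tested genes within 1 Mb (horizontal axis), with the line of equality dashed. NSDHL and DHCR7 lie near the line, and TM7SF2, FADS1, MVD and HMGCS1 lie far from it.

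Marker lists of other cell types also differed. The 3 fibroblast genes (COL1A1, COL1A2 and DCN) summed to 4.54, 11.8, 8.72 and 5.47 CPM in the K562 samples, 46.4, 55.2, 53.7 and 58.2 CPM in those of K/VP.5, and 8.26, 6.03, 7.07 and 4.48 CPM for K562/SSedit-2. COL1A2 was the most abundant, and DCN, at 0.134 CPM in K/VP.5, was near 0. Of the T cell genes, CD3D was at 32.8 CPM in K562, 8.34 CPM in K/VP.5 and 43.1 CPM for K562/SSedit-2, with CD2 and CD3E below 1 CPM. EPCAM, the only epithelial gene above 1 CPM, was at 176.5 CPM in K562, 128.9 CPM in K/VP.5 and 177.1 CPM for K562/SSedit-2. It was called lower in K/VP.5 against K562, with a log2 fold change of -0.45. The hepatocyte genes ALB and APOA1 did not reach 1 CPM. The part of these genes in the differences of K/VP.5 was not tested.

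The comparison of K562/SSedit-2 with K562 asks how the edited clone differs from its parent. Differences were small: the log2 fold changes of the 32 genes ran from -0.34 to 0.35, with a median of 0.03 beside -0.01 for all genes. Without 1 sample, the median of the 32 genes ran from -0.030 to 0.11. By edgeR, 0 of 32 genes were higher and 1 was lower (SCAP), beside 2.96% and 4.94% of all genes. At unadjusted p under 0.05, 4 were higher and 4 lower. The share of all genes at that threshold is not given here, so nothing is read from these counts. DESeq2 called 0 higher and 3 lower (791 and 1260 among all genes), and limma voom 0 and 2 (568 and 886). Past 2-fold at adjusted p under 0.1 there were 0 higher and 0 lower by edgeR, DESeq2 and limma voom alike, beside 0.805% and 1.26% of all genes by edgeR. Among all genes, 551 were called higher and 920 lower, a split that was 763 and 822 under upper-quartile scaling.

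SCAP stood at 289.6, 295, 272 and 271 CPM in K562 and at 240.1, 235.5, 246.5 and 216 CPM in K562/SSedit-2. No samples overlapped, and K562/SSedit-2 replicate 4 was the lowest. The log2 fold change was -0.26 (SE 0.0623, adjusted p 0.0152), and adjusted p ran from 0.00126 to 0.064 over all settings tried. SCAP was -0.24, -0.25 and -0.22 and not called without K562 replicate 2, K562/SSedit-2 replicate 2 and K562/SSedit-2 replicate 4.

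The largest values belonged to genes that were not called. HMGCS1 had 554, 591, 480.3 and 505 CPM in K562/SSedit-2, where K562 replicate 1 (543) reached into that range, and a log2 fold change of 0.35 (adjusted p 0.237). SREBF1 had 227, 211, 203 and 156 CPM, of which replicate 1 overlapped K562 replicate 4 (222), and a log2 fold change of -0.34 (adjusted p 0.0506). FADS2 had 29.55, 29.04, 26.5 and 26.2 CPM, all below K562, and a log2 fold change of -0.34 (adjusted p 0.055). MVD, which rose in K/VP.5, stood at 195, 219, 196 and 158 CPM, overlapping K562 (169 to 217 CPM).

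Between these lines, departures from the line mean correlated across genes at r of 0.135 to 0.292 for samples of equal replicate number. For unequal numbers r ran from -0.313 to 0.128, with a mean of -0.0666. Departures cancel out within a line, so that mean largely follows from the values at equal numbers and is no separate reference. With the replicate as a block, 1 gene was higher, MYLIP at 0.29 (adjusted p 0.00883, range over settings 0.00883 to 0.256), and 3 were lower. These were SCAP at -0.27, SREBF1 at -0.35 (adjusted p 0.0216, range 0.000252 to 0.158) and FADS2 at -0.34 (adjusted p 0.043, range 0.00399 to 0.136). Among all 18626 genes the block called 745 higher and 1196 lower. Without K562 replicate 1, 4 genes were called higher, with log2 fold changes of 0.51 for HMGCS1, 0.39 for MYLIP, 0.32 for SQLE and 0.29 for NSDHL. Calls grew among all genes too in that setting, to 1202 higher and 1271 lower of 19028.

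The comparison of K562/SSedit-2 with K/VP.5 sets the derived lines against each other, and shares the K/VP.5 and K562/SSedit-2 samples with the comparisons above. 7 of 32 genes were higher in K562/SSedit-2 and 10 lower, beside 22.8% and 24.6% of all genes, and past 2-fold there were 4 higher (MYLIP, TM7SF2, FADS1 and NSDHL) and 1 lower (MVD), beside 6.2% and 9.62%. The median was -0.19 for the 32 genes, from -0.19 to -0.11 without 1 sample, and -0.01 for all genes. MYLIP stood at 78.0, 65.4, 60.8 and 59.0 CPM in K562/SSedit-2, above every K/VP.5 sample, and the log2 fold change was 1.30 (adjusted p 3.72e-08). TM7SF2, at 33.3, 32.4, 27.9 and 18.5 CPM, had 1.32, NSDHL, at 71.9, 65.8, 55.4 and 68.8 CPM, had 1.16, and FADS1, at 953.5, 817, 735 and 763 CPM, had 1.23. MVD had -1.37 (adjusted p 1.33e-07).

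The other genes called were smaller in size. DHCR7 (0.63), INSIG2 (0.33) and ACACA (0.22) were higher in K562/SSedit-2, and FDPS (-0.64), HMGCS1 (-0.57), FADS2 (-0.43), ACLY (-0.42), SC5D (-0.41), FASN (-0.38), SQLE (-0.34), SCAP (-0.30) and FDFT1 (-0.28) were lower. HMGCS1 and ACLY were not called without K/VP.5 replicate 2 (-0.35 and -0.29). With 1 sample left out, FDFT1 was called only without K/VP.5 replicate 4 or K562/SSedit-2 replicate 2, and was -0.15 without K/VP.5 replicate 2. SC5D was called only without K/VP.5 replicate 4 or K562/SSedit-2 replicate 4, and was -0.29 without K/VP.5 replicate 2. INSIG2 was called only without K/VP.5 replicate 2, K/VP.5 replicate 3 or K562/SSedit-2 replicate 4, and was 0.24 without K/VP.5 replicate 4. Of the genes not called with all samples, INSIG1, STARD4 and SCD were called as higher without K/VP.5 replicate 2 (0.70, 0.49 and 0.44), and MVK as lower without K/VP.5 replicate 1, K562/SSedit-2 replicate 2 or K562/SSedit-2 replicate 3 (-0.35, -0.38 and -0.35). Other settings added more: 24 of the 32 genes were called without a filter (4511 higher and 4963 lower of all 42540) and 23 with only the 8 samples compared (4757 and 4802 of 17837). PMVK and CYP51A1 were gained as lower in both, MSMO1 without a filter, SREBF2 with only the 8 samples and LSS under upper-quartile scaling. INSIG2 was lost under upper-quartile scaling and the filter on CPM, ACACA under upper-quartile scaling and FDFT1 by limma voom.

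Samples that did not overlap can be counted as well. Between K/VP.5 and K562, 4 of the 32 genes had all K/VP.5 samples higher and 7 had all lower, beside 21.9% and 21.1% of all genes. Between K562/SSedit-2 and K562 the counts were 1 (ACAT2) and 2 (SCAP and FADS2), beside 5.47% and 7.78%. ACAT2 had a log2 fold change of 0.18 there and did not pass the test (adjusted p 0.154).

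Other genes of lipid metabolism were taken from 3 lists. In K/VP.5 against K562, 4 of 20 tested genes for handling sterol rose and 4 fell, 6 of 20 genes for handling fatty acids rose and 5 fell, and 1 of 10 genes of the isoprenoid branch rose and 3 fell, where 22.7% of all genes rose and 22.9% fell. No test sets these counts, or those below, apart from such shares, and nothing is read from them. Past 2-fold were SCD5, a desaturase related to SCD, from 0.19 ± 0.138 to 2.67 ± 0.389 CPM (log2 fold change 3.83, adjusted p 1.45e-07), MLXIPL, the factor ChREBP, from 1.9 ± 0.776 to 5.15 ± 0.594 CPM (1.44, adjusted p 5.08e-05), and ACSL1, which activates fatty acids, from 12.7 ± 1.58 to 1.11 ± 0.259 CPM (-3.49, adjusted p 4.83e-11). SCD5 was close to the floor in K562, where 3 counts are 0.069 to 0.082 CPM, so the size of its change is uncertain. In K562/SSedit-2 against K562, 3 of 20 sterol handling genes fell, STARD3 (-0.32), POR (-0.21) and MBTPS1 (-0.18), beside 4.94% of all genes. At unadjusted p under 0.05 there were 0 higher and 7 lower. Shares of all genes at unadjusted p are not given here. By edgeR 0 genes of the fatty acid handling and isoprenoid lists were called there, where unadjusted p under 0.05 gave 0 higher and 2 lower, and 1 higher and 1 lower. In K562/SSedit-2 against K/VP.5 the higher and lower genes numbered 2 and 6 for sterol handling, 4 and 4 for fatty acid handling, and 0 and 2 for the isoprenoid branch by edgeR, beside 22.8% and 24.6% of all genes. For the isoprenoid branch unadjusted p under 0.05 gave 1 higher and 2 lower.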

How the data were processed

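Total RNA of 12 samples was sequenced by the authors, who aligned the paired-end reads with HISAT2 on GRCh38 and counted reads per gene with featureCounts. The values are the deposited counts, whole numbers without normalization for 60671 genes. The annotation release, the strand setting and the treatment of reads with several positions are not stated in the sources used here. Genes were placed by GENCODE, and promoters came from RefSeq.

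Tests used edgeR 4.0.16 in R 4.3.3: genes with enough counts by filterByExpr (minimum 10) were kept, TMM factors were computed, and quasi-likelihood F tests were made on all 12 samples with a term for each line. P-values are two-sided and adjusted by Benjamini-Hochberg over the 18626 genes. CPM are edgeR's counts scaled to the TMM-adjusted size of each library. Errors of log2 fold changes (SE) are the size of that change over the root of its F value. A gene was called at adjusted p under 0.05, and also at the study's threshold of 2-fold at adjusted p under 0.1. Means carry the SD over 4 samples. With at least 28981722 counts per sample, 3 counts correspond to at most 0.102 CPM.

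All 32 genes could be named. Values in every sample were given for genes past 2-fold in any comparison and for the 3 largest changes of each comparison, for TOP2A as a label check, and for SCAP, SQLE, MSMO1 and DHCR7, chosen after their values were seen. From the other lists, genes past 2-fold against K562 were named, with the 3 sterol handling genes that fell in K562/SSedit-2 added after their values were seen. The members and lists were chosen with earlier results of these data known.

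Alternatives were size factors by the DESeq2 method, upper-quartile scaling, DESeq2 1.42.0, limma 3.58.1 voom, no filter, a filter of 1 CPM in 4 samples, only the 8 samples compared, a replicate block, adjusted p under 0.1 and leaving out each sample. Leaving out K562 replicate 1 and K/VP.5 replicate 2 together was chosen after seeing the data. Only the edgeR fit for K/VP.5 against K562 was run on simulated counts. These held far fewer changed genes than were called here and no shift shared by the genes of a sample. Marker lists for K562, T cells, fibroblasts, epithelium and hepatocytes were written by hand. Figures used matplotlib 3.10.9 in Python 3.11.15.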

Additional observations from a re-analysis of the deposited data

Results flagged for a closer look

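In each line the 32 genes were searched for a sample far from the other samples of that line, by the gap to its nearest neighbour divided by the range of the line, against Dixon's critical value. Of 96 groups, 2 passed, where chance gives about 1 in 20. DHCR7 in K562 had a ratio of 0.839, with replicate 1 at 469 CPM and the others between 252 and 287. FASN in K562/SSedit-2 had a ratio of 0.85, with replicate 4 at 3213 CPM and the others between 3980 and 4115.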

How the results depend on the processing

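Most results kept their direction and their side of the threshold. Of the values of single genes, 1363 stayed on their side, 69 lost a call, 68 gained a call and 68 changed sign, and the changes of sign concerned genes that were not called. Of the 17 genes called in K/VP.5 against K562, 9 were called under all 17 alternatives. Of the 17 called in K562/SSedit-2 against K/VP.5, 11 were called under all 16, and the call of SCAP in K562/SSedit-2 against K562 was lost in 3 of 16. The cause was not tested, nor was the effect of depth. The lowest level of these genes in a sample was 10.3 CPM.

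In K/VP.5 against K562, the genes lower by 2-fold numbered 2 under upper-quartile scaling and 2 without K562 replicate 1 and K/VP.5 replicate 2, a setting chosen after seeing the data. Over the settings without 1 sample, the genes higher numbered 4 to 12, those higher by 2-fold 1 to 2 and those lower by 2-fold 2 to 4. Among all genes, 3860 to 4350 were higher in those settings at adjusted p under 0.05. Counts of all genes past 2-fold in these settings are not given here, so nothing is read from the counts past 2-fold. In K562/SSedit-2 against K562, the genes higher numbered 1 at adjusted p under 0.1, 1 under upper-quartile scaling, 3 without a filter, 1 under the CPM filter, 1 with the replicate block and 0 to 4 without 1 sample. The genes lower numbered 3, 2, 3, 3 and 3 in these settings, 3 by DESeq2, 2 by limma voom and 0 to 3 without 1 sample. Among all genes, the higher and lower calls were 763 and 822 under upper-quartile scaling and 586 and 1590 of 42540 without a filter. They were 679 and 897 of 14238 under the CPM filter and 745 and 1196 with the replicate block. Without 1 sample they ran from 349 to 1202 and from 497 to 1271. Counts of all genes at adjusted p under 0.1 are not given here. In K562/SSedit-2 against K/VP.5, the genes lower numbered 6 to 10 without 1 sample, and 14 without a filter, with only the 8 samples compared and with the replicate block. Among all genes, 4042 to 4325 were lower without 1 sample. The replicate block, used where the labels share only a number, gave 19 called genes in K/VP.5 against K562, with IDI1 and CYP51A1 gained, and 23 in K562/SSedit-2 against K/VP.5. Departures from the line mean at equal replicate number correlated at r of -0.0027 to 0.27 between K/VP.5 and K562. Between K562/SSedit-2 and K/VP.5 r ran from -0.095 to 0.16, so the pairing that the block assumes is not shown for either. Among all 18626 genes the block called 4553 higher and 4505 lower in the first comparison, and 4502 and 4839 in the second.

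Changes of sign by setting were as follows. In K/VP.5 against K562, LSS was 0.064 under upper-quartile scaling and 0.019 under the CPM filter, and STARD4 was -0.0086 without a filter. In K562/SSedit-2 against K562, GGPS1 was 0.0057 under upper-quartile scaling and 0.0086 by limma voom, PMVK was 0.0011 by limma voom, and without a filter FDPS was -0.0014, DHCR7 -0.025 and SCD -0.023. In K562/SSedit-2 against K/VP.5, IDI1 was -0.011 under upper-quartile scaling.

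Without 1 sample, log2 fold changes in K/VP.5 against K562 ran from -0.069 to 0.16 for SREBF2, from -0.0092 to 0.052 for SCAP, from -0.37 to 0.011 for INSIG1, from -0.18 to 0.18 for STARD4, from -0.073 to 0.033 for LSS, from -0.077 to 0.15 for HSD17B7 and from -0.0062 to 0.19 for FADS2. Without 1 sample, log2 fold changes in K562/SSedit-2 against K562 ran from -0.20 to 0.073 for PMVK, from -0.015 to 0.13 for MVD, from -0.025 to 0.10 for FDPS, from -0.12 to 0.18 for GGPS1, from -0.024 to 0.16 for FDFT1, from -0.15 to 0.098 for CYP51A1, from -0.031 to 0.15 for HSD17B7, from -0.018 to 0.26 for SC5D, from -0.093 to 0.25 for DHCR7, from -0.16 to 0.063 for ACLY, from -0.064 to 0.17 for SCD and from -0.043 to 0.21 for FADS1. Without 1 sample, log2 fold changes in K562/SSedit-2 against K/VP.5 ran from -0.10 to 0.049 for SREBF1, from -0.049 to 0.076 for ACAT2, from -0.066 to 0.19 for IDI1, from -0.097 to 0.14 for HSD17B7 and from -0.055 to 0.034 for EBP. Without K562 replicate 1 and K/VP.5 replicate 2, STARD4 was -0.00052 in K/VP.5 against K562, with its sign changed, while SCAP at 0.065 and FADS2 at 0.20 kept their sign.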
